A study of Mus musculus with 6 samples.

Results

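The genes followed here are 10 co-inhibitory and co-stimulatory molecules of lymphocytes, taken by name from a list of immune checkpoint and co-stimulatory genes. They are the receptors *Klrg1*, *Pdcd1*, *Ctla4*, *Lag3*, *Tigit*, *Havcr2*, *Cd200r1* and *Icos*, and the ligands *Icosl* and *Cd274*. In the table of normalized counts, 9 of the 10 were listed, among 16381 genes, and all 9 were among the 14419 genes tested. *Lag3* (ENSMUSG00000030124, chr6:124881320-124888765, GRCm39) had no row and was not analysed here.

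These molecules set how strongly a lymphocyte answers an activating signal. Co-inhibitory receptors such as PD-1, CTLA-4, TIGIT, TIM-3 and KLRG1 bind ligands on neighbouring cells and damp activation, in part by bringing phosphatases to the membrane, whereas ICOS adds a co-stimulatory signal. Group 2 innate lymphoid cells (ILC2s) lack antigen receptors, are driven by alarmins such as IL-33, and carry several of these receptors: KLRG1 marks mature ILC2s, PD-1 restrains activated ones, and ILC2s bear both ICOS and its ligand ICOSL.

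Bulk RNA-seq was done on activated ILC2s (aILC2s) cultured ex vivo for 24 h in 250 µM melatonin, or in the DMSO vehicle, with 3 samples in each group. All 6 samples came from lungs of wild-type BALB/c mice aged 6 to 8 weeks, described in the methods as female, that had received 0.5 µg of rmIL-33 intranasally on each of 3 days. Cells were sorted as live CD45+ lineage-negative ST2+ CD127+ at a stated purity above 95%, so both groups had seen IL-33 in vivo and there was no unchallenged group. The lineage gate was set to remove T cells (CD3ε, TCRβ, TCRγδ, CD4, CD5), NK cells (CD335), B cells (CD45R/B220) and myeloid cells (CD11b, CD11c, Gr-1). The labels do not say whether replicates were separate mice or separate cultures, so p-values measure only the spread between these samples.

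The libraries held between 17056267 and 20511708 estimated counts. *Xist* was high only in melatonin replicates 2 and 3, at 579 and 1092 normalized counts, and Y-linked transcripts were found in the other 4 libraries alone. All 10 genes are autosomal. Because melatonin replicates 2 and 3 differ from vehicle in this as well as in treatment, which cannot be told apart, the results for the 9 listed genes are also given without melatonin replicate 1 and for that library alone, and those of some other named genes as well. With 1 melatonin library, the spread comes only from the 3 vehicle libraries and the lone library is assumed to vary like them. Of 17 tested ILC2 identity genes, 3 were higher and 10 lower, beside 24.5% and 24.7% of all tested genes. The lower ones included *Il7r*, the CD127 gene used in the sort (log2 fold change -1.06, with 1655 normalized counts in melatonin replicate 1 against 743 and 700 in the other two), *Thy1* (-2.88), *Id2* (-0.85) and *Il2ra* (-0.77). *Gata3* was at 19365 normalized counts in vehicle and 20469 in melatonin on average and was not called, and *Il1rl1*, the ST2 chain of the IL-33 receptor, was higher (log2 fold change 0.63). Markers of several other cell types fell with melatonin. The summed T cell list ranged from 6730 to 7235 normalized counts in vehicle and from 2512 to 3602 in melatonin, with 8 of 9 tested genes lower; *Trbc2* and *Trbc1* led it, *Trac* averaged 8.34 in vehicle, and *Cd4*, *Cd8a*, *Cd8b1* and *Cd5* had no row. The natural killer (NK) list ranged from 5944 to 7224 in vehicle and from 75.6 to 210.1 in melatonin, mostly *Gzma*, and all 3 of its tested genes were lower. *Ncr1*, the gene of the CD335 used in the gate, was at 103.6, 101.2 and 114.4 in vehicle and at 0, 0 and 1.005 in melatonin. Of the myeloid list, 6 of 11 tested genes were lower (sums 2188 to 2404 and 1168 to 1474), and of the B cell list 2 of 3 (416.9 to 608.5 and 144.7 to 241.5). On the T, NK and B cell lists, *Cd3d*, *Trac*, *Ncr1* and *Igkc* reached 10 normalized counts only in vehicle. The filter of 10 thus favoured falls. These counts of lower genes stand beside 24.7% of all tested genes, and no change of a list is read from them. Of the epithelial list, 4 of 6 tested genes were lower and 1 higher, and the 4 lower ones reached 10 normalized counts only in vehicle. The sums of this list overlapped, at 935 to 2325 in vehicle and 1042 to 1237 in melatonin. Vehicle replicate 3 stood apart, with *Scgb1a1* at 1045 against 95.2 and 21.55 in vehicle replicates 1 and 2. None of 3 mast cell and basophil genes was called, and of the stromal and endothelial list only *Pecam1* was tested and was lower. The part of other cells in the changes below was not tested. In bulk samples fewer cells of a type and less RNA per cell cannot be told apart.

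Whether melatonin changed the checkpoint and co-stimulatory genes of aILC2s was asked by comparing the melatonin and vehicle libraries with limma on log2(normalized count + 1), with p-values adjusted over all tested genes and a threshold of 0.05. *Klrg1*, *Ctla4* and *Tigit* were lower with melatonin, by 3.94-fold to 4.47-fold. *Icosl* and *Cd200r1* were higher, by 1.62-fold and 1.39-fold. *Pdcd1*, *Icos*, *Havcr2* and *Cd274* did not pass the test. Thus 5 of the 9 genes were called, or 55.6%, beside 49.2% of all tested genes, so the share called was near that of any genes in these libraries. The 3 lower calls stood beside 24.7% of all tested genes called lower, and the 2 higher calls beside 24.5% called higher. The 3 melatonin libraries lay below the 3 vehicle libraries for 3 of the 9 genes, as for 30.3% of tested genes, and above them for 2, as for 30%. The median log2 fold change was -0.26 over the 9 genes and -0.005 over all tested genes. For a single gene the exact two-sided permutation test cannot go below 0.1 with 3 samples against 3, and the 5 called genes reached that value.

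**Figure D1:**
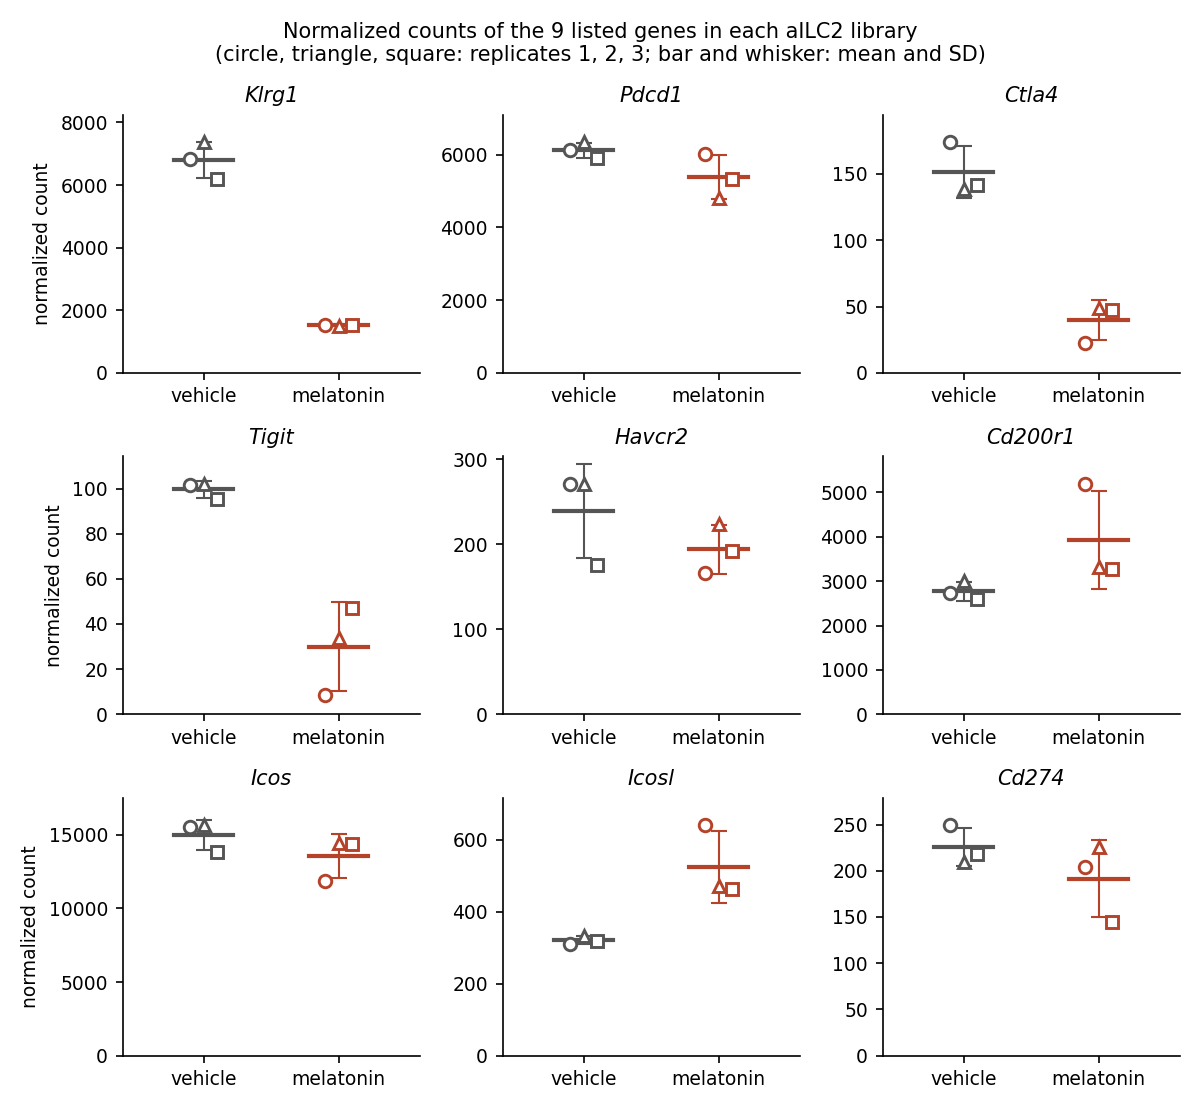
Normalized counts of each listed gene (vertical axes, from 0) in the vehicle and melatonin libraries, with each library as a symbol and the mean and SD as bar and whisker. The 3 melatonin libraries lie below every vehicle library for *Klrg1*, *Ctla4* and *Tigit* and above them for *Icosl* and *Cd200r1*, with melatonin replicate 1 (circle) the farthest from vehicle in all of these except *Klrg1*.

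Among the co-inhibitory receptors, *Klrg1* had the lowest fold change and the smallest error. It encodes a lectin-like receptor for cadherins (ENSMUSG00000030114, chr6:122246981-122259914, minus strand). Vehicle replicates 1, 2 and 3 held 6831, 7361 and 6207 normalized counts, and melatonin replicates 1, 2 and 3 held 1536, 1491 and 1527. The melatonin libraries were nearly identical, with a coefficient of variation of 1.56% against 8.49% in vehicle, and the groups were far apart. *Klrg1* was 4.47-fold lower with melatonin (log2 fold change -2.16, SE 0.08, adjusted p = 1.53e-06), and 3.29% of tested genes had a lower fold change. The value was -2.17 without melatonin replicate 1 and -2.14 for that library alone, so the fall was of the same size in libraries with and without *Xist*. Over all 20 alternatives to the processing, stricter thresholds aside, it lay between -2.24 and -2.01 and was called in each. *Klrg1* is also made by T and NK cells, which the sort was set to remove and whose marker sums fell as given above. Their part in the fall of *Klrg1* was not tested.

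*Ctla4* encodes the high-affinity receptor for CD80 and CD86 (ENSMUSG00000026011, chr1:60926159-60954991, plus strand). It stood at 173.6, 138.7 and 141.6 normalized counts in vehicle and at 22.4, 49.2 and 47.2 in melatonin. Melatonin replicate 1 was the lowest, and the groups did not overlap. The fall was 3.94-fold (log2 fold change -1.98, SE 0.30, adjusted p = 0.000996). It was -1.62 without melatonin replicate 1 and -2.69 for that library alone, and it was called in every alternative that kept the gene. Behind the melatonin values were 24, 45 and 47 estimated reads, and the 95% exact Poisson interval of the first, 15.4 to 35.7 reads, overlaps that of the second, 32.8 to 60.2, which covers counting error only.

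*Tigit*, the receptor for CD155 and nectin-2 (ENSMUSG00000071552, chr16:43469100-43484509, minus strand), was even in vehicle and uneven in melatonin. It was at 101.7, 102.1 and 95.5 normalized counts in vehicle and at 8.40, 33.9 and 47.2 in melatonin. All melatonin libraries were below vehicle, but the coefficient of variation was 66.1% among them and 3.74% in vehicle. With 9 reads in melatonin replicate 1 (interval 4.12 to 17.1) against 31 (21.1 to 44.0) and 47 (34.5 to 62.5) in the others, this spread is wider than counting error. The fitted fall was 4.01-fold (log2 fold change -2.005, SE 0.53, adjusted p = 0.0126). Melatonin replicate 1 set much of its size: the log2 fold change was -1.30 (adjusted p = 0.0018) without that library and -3.42 for that library alone. *Ctla4* and *Tigit* are known for regulatory T cells, which the gate on CD3ε, CD4 and TCRβ was set to remove. *Foxp3*, the defining factor of those cells, was at 67.7, 63.6 and 81.0 normalized counts in vehicle and at 27.6, 39.9 and 73.3 in melatonin. *Foxp3* was not called (log2 fold change -0.69, 95% confidence interval -1.46 to 0.08). The part of regulatory T cells in the falls of *Ctla4* and *Tigit* was not tested.

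The bases upstream of *Ctla4* and *Tigit*, which fell together, and of *Icosl*, which rose, are shown because they are the called genes with an entry in the RefSeq promoter table (GRCm38.p6), which matched 6 of the 10 genes. The windows are the 250 bases before the RefSeq start, 5′ to 3′ on the gene's strand: chr1:60908775-60909024 for *Ctla4*, chr16:43664185-43664434 (minus strand) for *Tigit* and chr10:78069118-78069367 for *Icosl*. Capitals mark matches, on either strand, to GATAA (GATA factors), GGAAA (NFAT), TGACTCA (AP-1), CACGTG (E-box), TGACNNNGC (antioxidant response element core), AGGTCA (ROR and REV-ERB half-site) or TTCNNNGAA (STAT).
Ctla4: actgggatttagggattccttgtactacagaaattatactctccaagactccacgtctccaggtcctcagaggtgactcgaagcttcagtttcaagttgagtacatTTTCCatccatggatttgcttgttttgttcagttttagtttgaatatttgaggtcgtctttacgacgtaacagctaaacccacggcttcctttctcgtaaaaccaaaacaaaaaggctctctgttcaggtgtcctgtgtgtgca
Tigit: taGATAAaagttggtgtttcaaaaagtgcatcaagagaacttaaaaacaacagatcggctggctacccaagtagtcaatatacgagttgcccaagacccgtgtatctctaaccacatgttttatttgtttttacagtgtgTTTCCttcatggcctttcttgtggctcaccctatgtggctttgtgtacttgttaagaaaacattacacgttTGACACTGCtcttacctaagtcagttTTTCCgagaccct
Icosl: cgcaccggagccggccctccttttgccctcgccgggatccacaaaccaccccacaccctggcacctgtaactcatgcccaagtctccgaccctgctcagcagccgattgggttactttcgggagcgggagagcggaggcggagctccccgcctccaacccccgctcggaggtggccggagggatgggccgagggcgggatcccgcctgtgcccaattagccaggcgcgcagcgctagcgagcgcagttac
The *Ctla4* window held 1 match to GGAAA, starting 144 bases before the start. The *Tigit* window held 1 match to GATAA, 2 to GGAAA and 1 to TGACNNNGC, and the *Icosl* window held no match to any of the 7 motifs. Of all 32851 windows of this length in the table, 55.6% held GGAAA, 22.6% GATAA and 10.2% TGACNNNGC. TGACNNNGC can overlap TGACTCA and AGGTCA, and these letters are a description of the windows only.

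*Cd200r1*, the inhibitory receptor for CD200, was the only co-inhibitory receptor of the 9 genes to be called higher (ENSMUSG00000022667, chr16:44586096-44615343, plus strand). It was at 2725, 3001 and 2590 normalized counts in vehicle and at 5192, 3321 and 3266 in melatonin. Melatonin replicate 1 stood well above the other melatonin libraries, which were just above vehicle. The rise was 1.39-fold (log2 fold change 0.47, SE 0.17, adjusted p = 0.0423). The call is weak: the log2 fold change was 0.25 without melatonin replicate 1 (adjusted p = 0.026) and 0.91 for that library alone, and the call was lost on leaving out any vehicle library (adjusted p = 0.0699 to 0.133). *Cd200r1* shares 228 exonic bases with *Gm60988*, a long noncoding RNA gene on the opposite strand that had no row. The relatives of *Cd200r1* lie beside it and could share reads with it. *Cd200r4*, 16753 bases away, was at 144.7, 118.1 and 144.8 normalized counts in vehicle and 458.5, 244.7 and 200 in melatonin, 2.08-fold higher (log2 fold change 1.06, adjusted p = 0.0128). *Cd200r2* and *Cd200r3* averaged under 35 normalized counts in both groups and were not called. Summed over the 4 genes, the family was at 2894, 3158 and 2770 in vehicle and at 5697, 3605 and 3484 in melatonin. *Cd200r1* makes up most of that sum, so it does not test how reads were divided among relatives.

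*Pdcd1* encodes PD-1 (ENSMUSG00000026285, chr1:93966027-93980312, minus strand) and was not called. It was at 6122, 6338 and 5922 normalized counts in vehicle and at 6030, 4822 and 5320 in melatonin. Melatonin replicate 1 lay within the vehicle range, while replicates 2 and 3 lay below it. The log2 fold change was -0.19 (95% confidence interval -0.40 to 0.02, adjusted p = 0.116). Without melatonin replicate 1 it was -0.27 and passed the test (adjusted p = 0.0106), and it also passed with sample weights and with upper-quartile scaling. It was -0.02 for that library alone, -0.02 with the length correction, -0.05 with the GC correction and -0.11 without melatonin replicate 2, none of which passed. The lower end of the interval, -0.40, is a smaller fall than any value of *Klrg1*.

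*Havcr2*, which encodes TIM-3 (ENSMUSG00000020399, chr11:46345673-46374149, plus strand), was variable. It was at 270.7, 270.8 and 175.2 normalized counts in vehicle and at 166.2, 224.0 and 192.0 in melatonin. The groups overlapped through vehicle replicate 3, and the log2 fold change was -0.28 (95% confidence interval -0.74 to 0.18, adjusted p = 0.273). It was -0.18 without melatonin replicate 1, -0.49 for that library alone and -0.49 without vehicle replicate 3 (adjusted p = 0.0623), and was not called in any alternative.

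**Figure D2:**
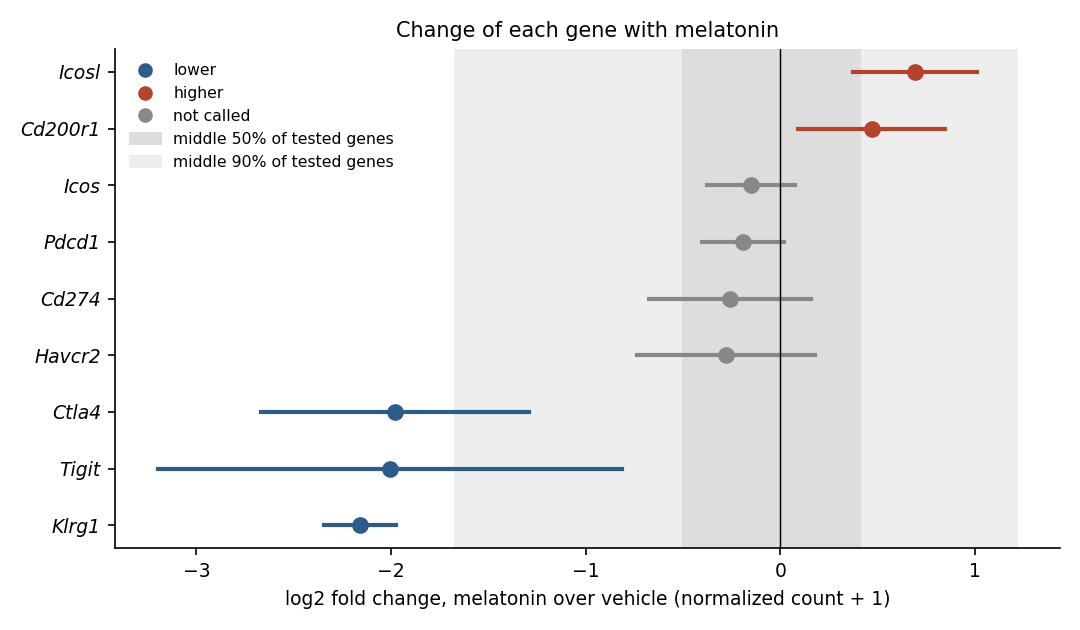
Log2 fold change of each listed gene, melatonin over vehicle on the log2(normalized count + 1) scale, with its 95% confidence interval and coloured by call, over grey bands that hold the middle 50% and 90% of all tested genes. *Klrg1*, *Tigit* and *Ctla4* have estimates below the wider band, which starts at -1.67, whereas *Icosl* and *Cd200r1* lie inside it.

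On the co-stimulatory side, *Icos* had the highest level of the 9 genes per kb of exon (ENSMUSG00000026009, chr1:61017086-61039479, plus strand). It was at 15540.0, 15649 and 13844 normalized counts in vehicle and at 11855, 14461 and 14374 in melatonin. Only melatonin replicate 1 lay below all vehicle libraries. The log2 fold change was -0.15 (95% confidence interval -0.38 to 0.08, adjusted p = 0.241), and -0.06 without melatonin replicate 1. That library alone gave -0.34 (adjusted p = 0.0208, with the spread of the vehicle libraries only). With a correction for GC content the value was -0.28 and passed the test (adjusted p = 0.0307).

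Its ligand *Icosl* (ENSMUSG00000000732, chr10:77905136-77919747, plus strand) was at 310.8, 332.6 and 319.0 normalized counts in vehicle and at 640.6, 470.9 and 462.4 in melatonin. Every melatonin library was above every vehicle library, and replicate 1 was the highest. The rise was 1.62-fold (log2 fold change 0.69, SE 0.14, adjusted p = 0.00401) and was called in all 20 of those alternatives, at 0.54 without melatonin replicate 1 and 1.00 for that library alone. As a share of the *Icos* level per kb of exon, *Icosl* was 1.48%, 1.58% and 1.71% in the vehicle libraries and 4.01%, 2.42% and 2.39% in the melatonin libraries. The ligand thus stood higher against its receptor in each melatonin library than in any vehicle library, while remaining far below it.

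*Cd274* encodes PD-L1 (ENSMUSG00000016496, chr19:29344529-29365495, plus strand). It was at 249.2, 209.9 and 218.2 normalized counts in vehicle and at 203.6, 226.1 and 144.7 in melatonin. The groups overlapped, and the log2 fold change was -0.26 (95% confidence interval -0.67 to 0.16, adjusted p = 0.27), with -0.07 when melatonin replicate 3, the lowest library, was left out. It was -0.31 without melatonin replicate 1, -0.39 without melatonin replicate 2 and -0.14 for melatonin replicate 1 alone, none of which passed. The gene shares 219 exonic bases with *Plgrkt* on the opposite strand, which was higher with melatonin (log2 fold change 0.68). It also shares 581 exonic bases with *Gm36043*, a long noncoding RNA gene on the opposite strand that had no row. The library kit does not mark strand, so reads from those bases cannot be assigned to one gene.

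**Figure D3:**
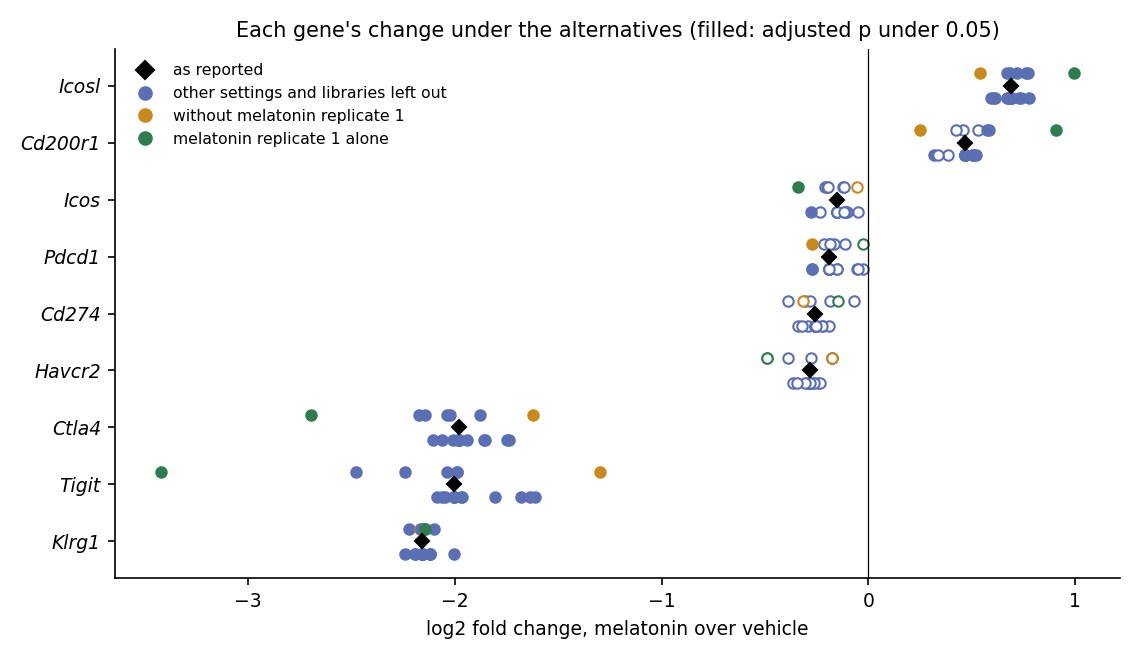
Log2 fold change of each listed gene as reported (diamond) and under each alternative (points, filled where the adjusted p is under 0.05), with melatonin replicate 1 left out in orange and used alone in green. No value changes sign. *Klrg1*, *Ctla4*, *Tigit* and *Icosl* are filled in every alternative that kept them. *Tigit* ranges most widely, from -3.42 with melatonin replicate 1 alone to -1.30 without it.

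Levels were compared between the genes only per kb of exon. In vehicle the order was *Icos* (mean 4376 normalized counts per kb), *Klrg1* (3299), *Pdcd1* (3115), *Cd200r1* (826.7), *Tigit* (95.1), *Icosl* (69.4), *Ctla4* (64.9), *Cd274* (55.3) and *Havcr2* (49.0). The ranges of the 3 libraries overlapped between *Klrg1* and *Pdcd1*, and between each neighbouring pair from *Icosl* down. In melatonin the order was *Icos* (3954), *Pdcd1* (2740), *Cd200r1* (1171), *Klrg1* (736.6), *Icosl* (113.5), *Cd274* (46.9), *Havcr2* (39.8), *Tigit* (28.4) and *Ctla4* (17.0). There, *Cd274*, *Havcr2* and *Tigit* overlapped one another, and *Tigit* overlapped *Ctla4*. *Klrg1* thus moved from above to below *Cd200r1*, with no overlap between their ranges in either group. *Klrg1* per kb was 106.5%, 110.8% and 100% of *Pdcd1* in the vehicle libraries and 24.3%, 29.5% and 27.4% in the melatonin libraries. Summed over the 9 genes, normalized counts were 32323, 33403 and 29513 in vehicle and 25654, 25100 and 25380 in melatonin, and most of that gap is the fall of *Klrg1*.

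**Figure D4:**
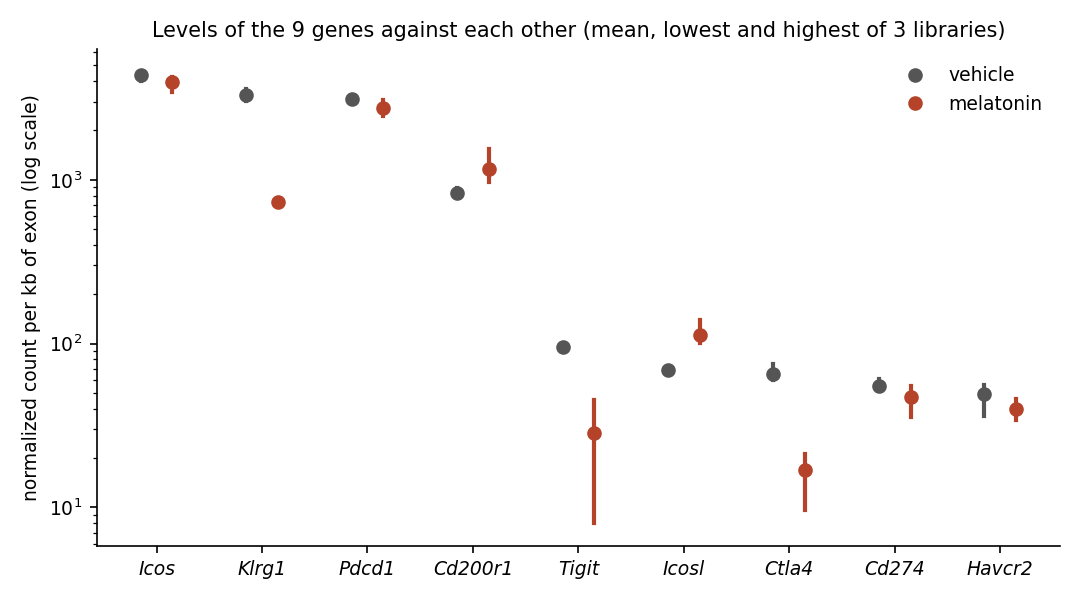
Level of each listed gene per kb of its exons (log scale), as the mean and the lowest-to-highest range of 3 libraries, in vehicle and melatonin. A first tier of 4 genes lies well above the other 5 in both groups, and *Klrg1* moves from the second place in vehicle to the fourth in melatonin.

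Several of these genes sit beside relatives. *Ctla4* and *Icos* lie 62095 bases apart on chromosome 1, with *Cd28*, the co-stimulatory receptor that shares their ligand family, 113641 bases from *Ctla4* on its other side. *Cd28* was at 182.9, 203.3 and 185.7 normalized counts in vehicle and 98.05, 46.98 and 55.3 in melatonin, a fall by 1.57 on the log2 scale (adjusted p = 0.0015). It was -1.88 without melatonin replicate 1 and -0.95 for that library alone. *Cd28* and *Ctla4* were therefore lower while *Icos* was not called. *Pdcd1lg2*, the gene of PD-L2, lies 22824 bases from *Cd274* and averaged 94.5 normalized counts in vehicle and 79.3 in melatonin (log2 fold change -0.24, adjusted p = 0.345). Neither PD-1 ligand was called. Among tested genes within 200 kb, read against 24.7% of all tested genes lower and 24.5% higher, 4 of 5 were lower near *Ctla4*, 3 of 3 near *Icos* and 3 of 5 near *Klrg1*, with none higher. The counts near *Ctla4* and *Icos* share genes, that near *Icos* includes *Ctla4*, and several of these neighbours are not protein-coding. Of the 3 near *Klrg1*, 2 are processed pseudogenes (*Gm6637* and *Rps27a-ps3*). Of the 4 near *Ctla4*, 2 are processed pseudogenes (*Rpl18-ps1* and *Eif4a-ps4*) and *Gm37039* is annotated as to be experimentally checked; *Rpl18-ps1* and *Gm37039* are also 2 of the 3 near *Icos*. Near *Cd274*, 4 of 6 were higher and 1 lower. Near *Cd200r1*, 2 of 5 were higher, near *Havcr2* 2 of 4 were higher and 1 lower, near *Icosl* 1 of 9 was higher and 2 were lower, near *Tigit* 1 of 2 was higher and near *Pdcd1* the 1 gene tested was higher. Around *Lag3*, 5 of 23 were higher and 6 lower.

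The ligands and counter-receptors of these molecules moved unevenly. Of 18 tested, 2 were higher and 8 lower (beside 24.5% and 24.7% of all tested genes), with a median log2 fold change of -0.60 beside -0.005 over all tested genes. Among the lower ones, *Cd86* reached the filter of 10 normalized counts only in vehicle, which favoured its fall. No change of the list is read from its counts or median. *Cdh2*, N-cadherin and a ligand of KLRG1, showed the largest rise, from 46.7, 41.2 and 40.9 normalized counts in vehicle to 418.3, 285.2 and 260.4 in melatonin (log2 fold change 2.85, SE 0.21, adjusted p = 3.71e-05). *Cdh1*, E-cadherin and another ligand of KLRG1, was at 15.9, 14.1 and 56.7 in vehicle and at 0.934, 17.5 and 3.02 in melatonin. Its groups overlapped and it was not called (log2 fold change -2.22, adjusted p = 0.056), but it was called without melatonin replicate 2 (-3.13, adjusted p = 0.0122). Leaving out other single libraries moved it as far as -1.51, and melatonin replicate 1 alone gave -3.66. *Cdh1* is also an epithelial marker, and vehicle replicate 3, its highest library, held the most *Scgb1a1* as well (1045 normalized counts). The part of epithelial cells in these values was not tested.

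The CTLA-4 and CD28 ligands were at low levels. *Cd80* was at 28.0, 55.3 and 45.1 normalized counts in vehicle and 13.1, 0 and 2.01 in melatonin (log2 fold change -3.60, adjusted p = 0.00772), with values from -4.61 to -2.70 when single libraries were left out and -1.58 for melatonin replicate 1 alone. *Cd86*, which reached the filter only in vehicle, averaged 28.0 and 5.12 (-2.34, adjusted p = 0.00589). *H2-Aa*, an MHC class II chain of the kind bound by LAG-3, went from a mean of 286.8 to 48.7 (log2 fold change -2.64), and its partner chain *H2-Ab1* from 1030.5 to 678.4 (-0.60). These genes are known for antigen-presenting cells, among which the sort was set to remove B cells and myeloid cells. The myeloid and B cell sums given above also fell. The part of ILC2s and of other cells in these falls was not tested.

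Around TIGIT, the activating receptor *Cd226*, which competes for the same ligands, was at 923.1, 929.5 and 853.0 normalized counts in vehicle and 575.2, 618.4 and 593.1 in melatonin (log2 fold change -0.60, adjusted p = 0.000824). *Cd96*, a further receptor of this group, had a similar log2 fold change, -0.59, that missed the threshold (adjusted p = 0.0502) and passed it in 7 of 20 alternatives. Leaving out single libraries moved it from -0.81 (without melatonin replicate 1, called) to -0.39 (without melatonin replicate 3). Of the shared ligands, *Nectin2* was lower (-1.40), a call lost without vehicle replicate 2 or 3, and *Pvr*, the gene of CD155, was not called (0.38). *Pvr* was at 0.12 without melatonin replicate 1 and at 0.90, past the threshold, for that library alone. *Cd200*, the ligand of CD200R1, averaged 21.4 and 7.19 normalized counts and was called lower (-1.67, adjusted p = 0.0421) in the full set but not when vehicle replicate 1, 2 or 3, or melatonin replicate 1 or 2, was left out. For TIM-3, *Lgals9* was not called (-0.24, adjusted p = 0.0692) but passed the threshold in 3 of 20 alternatives, at -0.34 without melatonin replicate 1, and *Hmgb1* was higher by 0.20, a call lost on leaving out any library but melatonin replicate 1.

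Of 18 other inhibitory receptors tested, 1 was higher and 12 were lower (beside 24.5% and 24.7% of all tested genes). The median log2 fold change was -1.50, or -1.38 with genes at or under 3 reads in every melatonin library set at their bound. Among the lower ones, *Cd244a*, *Klrc1*, *Klrd1*, *Cd300lf*, *Cd22* and *Fcgr2b* reached the filter of 10 normalized counts only in vehicle. The filter thus favoured falls, and no change of the list is read from its counts or median. Of genes with a mean of at least 100, *Vsir*, *Sit1*, *Entpd1* and *Milr1* were lower, *Nt5e* was higher, and *Cd47* and *Cd72* were not called. *Cd160* fell from a mean of 74.3 to 9.71 normalized counts (-2.78), *Lair1*, a collagen receptor, from 54.6 to 11.2 (-2.43), and *Milr1*, which encodes allergin-1, from 308.4 to 109.6 (-1.47). *Klrc1* and *Cd244a*, receptors of NK cells and some T cells, were at 0 in the 3 melatonin libraries, at least 15.8-fold and 14.5-fold lower against a floor of 3 counts per library. The sum of the NK list fell in the same libraries. The 1 rise was *Nt5e*, the CD73 ectoenzyme that makes adenosine, at 186.7, 204.3 and 204.6 in vehicle and 562.1, 460.0 and 365.9 in melatonin (1.20, adjusted p = 0.000547).

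Of 13 other co-stimulatory and adhesion receptors tested, 2 were higher and 8 lower (beside 24.5% and 24.7% of all tested genes). The median was -2.08, or -1.78 with bounds, and the first is the value of *Crtam*, which was not called. *Crtam* and, among the lower ones, *Cd2*, *Cd7*, *Slamf6*, *Slamf7*, *Klrk1* and *Klrc2* reached the filter of 10 normalized counts only in vehicle. No change of this list is therefore read from its counts or median. Of genes with a mean of at least 100, *Cd48* and *Ly9* were lower, *Cd84* and *Cd53* were higher, and *Cd81* was not called. *Cd48*, a SLAM family ligand, fell from a mean of 5605 to 2086 normalized counts (-1.44), and *Ly9* of the same family fell by 1.41. *Cd84*, another SLAM receptor, rose from 1487 to 2473 (0.70, adjusted p = 0.0107). The tetraspanin gene *Cd53* rose from 32597 to 45473 (0.47), a call lost without vehicle replicate 3. *Klrk1*, the NKG2D gene, was at 74.7, 74.0 and 62.9 in vehicle and at 0.934, 0 and 0 in melatonin, so its transcripts were at or near 0 with melatonin.

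**Figure D5:**
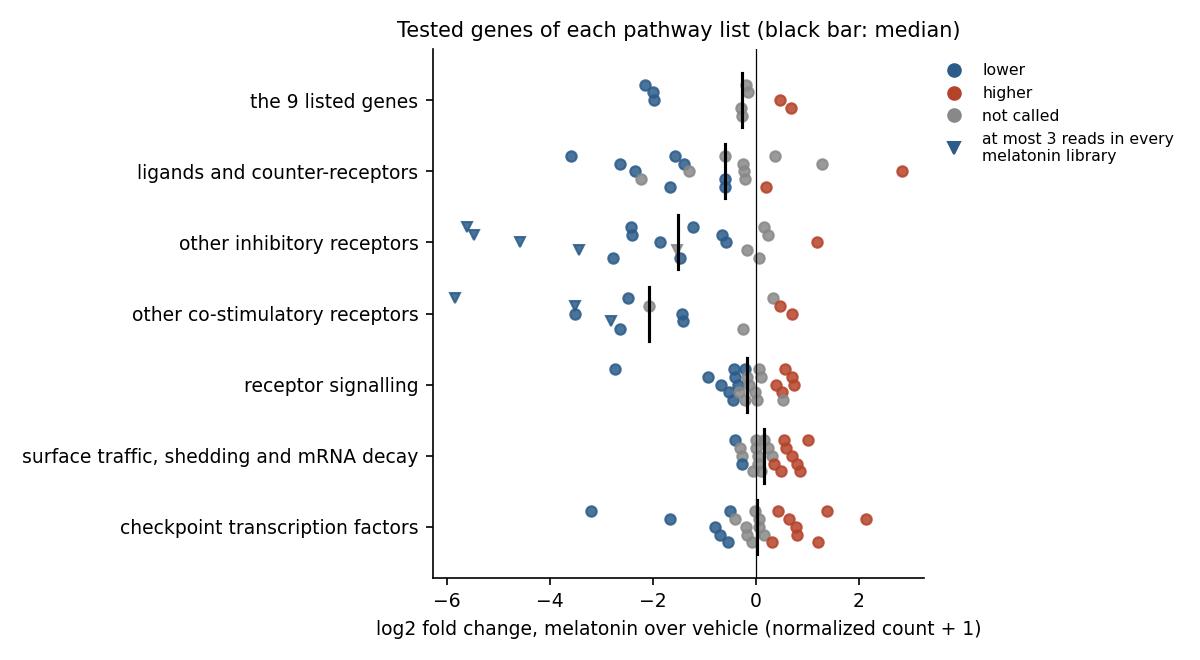
Log2 fold change of the tested genes of each pathway list, coloured by call, with the list's median as a black bar and triangles for genes with at most 3 reads in every melatonin library, whose fitted value is no bound. The lists of other inhibitory and other co-stimulatory receptors have medians of -1.50 and -2.08. Several members of these lists, such as *Klrc1*, *Klrd1*, *Klrc2* and *Cd7*, passed the filter only through vehicle, which favours falls, so lists are not compared by median. The lists of signalling, traffic and transcription factor genes have medians near 0.

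Of 23 tested genes that carry the receptors' signals, 5 were higher and 9 lower (median -0.17), beside 24.5% and 24.7% of all tested genes. *Lck*, the kinase that phosphorylates CD28 and PD-1 tails in T cells, was at 419.1, 385.1 and 344.1 normalized counts in vehicle and 59.8, 52.4 and 57.3 in melatonin, and fell by 2.74 on the log2 scale (adjusted p = 1.46e-05). Its relative *Fyn* rose from a mean of 1976 to 2915 (0.57). The adapter *Sh2d2a*, which binds LCK, fell by 0.93 and the inhibitory kinase gene *Csk* by 0.68. *Rasa1*, which turns off Ras, rose by 0.74.

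Of 21 tested genes for surface traffic, shedding and mRNA decay, 8 were higher, 2 lower and 11 not called (median 0.17), beside 24.5% higher and 24.7% lower over all tested genes. *Cmtm6*, which keeps PD-L1 from degradation, was at 7788, 8404 and 8131 normalized counts in vehicle and 17266, 17016 and 15252 in melatonin (log2 fold change 1.02, SE 0.08, adjusted p = 5.31e-05), while *Cd274* itself was not called. *Stub1*, a ubiquitin ligase, rose by 0.86 and *Adam17*, a protease that cleaves surface proteins, by 0.81. The 2 falls were small: *Rc3h2*, the gene of Roquin-2, which represses *Icos* mRNA, at -0.41, and the clathrin adaptor gene *Ap1m1* at -0.26. Both calls were lost without vehicle replicate 1 or 3, and that of *Ap1m1* also without vehicle replicate 2 or melatonin replicate 2.

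Of 22 tested transcription factors known to act on checkpoint genes, 8 were higher and 6 lower (median 0.03), beside 24.5% and 24.7% of all tested genes. *Tbx21*, the T-bet gene, which is known for type 1 lymphocytes, fell from 60.7, 53.4 and 76.6 normalized counts to 9.34, 5.46 and 4.02 (-3.20, adjusted p = 0.000267). *Irf4* fell from 3026, 2728 and 2992 to 467.8, 1249 and 1328 (-1.66, adjusted p = 0.00374), and like *Tigit* it was lowest in melatonin replicate 1, at -1.18 without that library and -2.64 for it alone. *Nfatc2*, a calcium-driven factor, fell by 0.79. *Bach2*, a repressor of effector genes, rose from 14.0, 16.9 and 12.6 to 125.1, 65.5 and 35.8 (2.14, with 1.69 without melatonin replicate 1 and 3.04 for it alone), *Nr4a2* rose by 1.39, and *Nfe2l2*, the NRF2 gene, rose from 915.7, 1006 and 922.3 to 2637, 2126 and 1881 (1.21, adjusted p = 0.000155). *Gata3* was not among the factors called (0.07, 95% confidence interval -0.20 to 0.33). Its melatonin replicate 1, at 24588 normalized counts, lay above every vehicle library, and replicates 2 and 3, at 17890 and 18927, lay below every one.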

How the data were processed

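The 6 libraries were made with the SMARTer Ultra Low Input kit, which does not mark strand. The deposited values are a signal per gene, called normalized counts here. The authors used Partek Flow for trimming, STAR for alignment to mm39 and Partek's E/M algorithm for estimated counts of genes in Gencode M33. Their methods state that genes under 10 counts in all samples were dropped, and name median-ratio normalization. Because that algorithm divides reads among genes, between 65.1% and 67.5% of values were whole numbers of reads (tolerance 0.01), so the main fit used no count model. Estimated counts were the values divided by that of one read. The voom variance model, run as an alternative, and the Poisson intervals took these estimated counts as counts. Read as a limit on each sample, the stated filter of 10 counts does not describe the listed genes. *Sh2d1a*, for example, was listed with a highest value of 3.148 normalized counts, in vehicle replicate 3. Of the 16381 listed genes, 14419 reached 10 normalized counts in at least 1 sample.

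Names and GRCm39 coordinates came from GENCODE, and 16334 of 16381 identifiers matched. Genes with at least 10 normalized counts in at least 1 sample were tested with limma 3.58.1 (R 4.3.3) with a mean-variance trend on log2(value + 1), melatonin against vehicle, two-sided, with Benjamini-Hochberg adjustment and a threshold of 0.05. A fold change is on that scale and understates changes of low genes. The code was tested on simulated data. Within groups, libraries differed by more than counting noise (chi-square per degree of freedom 6.36 to 37.3). Levels per kb used the union of exons.

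Named genes were all 10 molecules, their direct partners, relatives or overlapping genes nearby and, per pathway list, the 3 largest rises and 3 largest falls among genes past the threshold whose mean was 30 or more. *Klrc1*, *Cd244a*, *H2-Ab1*, *Foxp3*, *Gata3*, *Il1rl1*, the marker genes and the pseudogenes stand outside that rule and were chosen after their values were seen. A gene that the rule names is not reported here. The molecules and lists were chosen with earlier results of these data known. Alternatives were pseudocounts, filters, scalings, variance models, a replicate block, length and GC corrections, left-out libraries and stricter thresholds.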

Additional observations from a re-analysis of the deposited data

How the results depend on the processing

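No fold change of the 9 genes changed sign in any of the alternatives run. Of their values, 167 kept the call, 6 lost it and 5 gained one. The number called higher was 1 in place of 2 with upper-quartile scaling, without the mean-variance trend, with the GC correction or at an adjusted p under 0.01, and 0 with a log2 fold change of at least 1. Leaving out each library in turn gave 1 to 2 called higher. In the first 3 of these settings *Cd200r1* lost its call (adjusted p = 0.0755, 0.113 and 0.132). The number called lower was 1 in place of 3 with a mean of at least 100, which leaves *Ctla4* and *Tigit* untested, and 2 at an adjusted p under 0.01, where *Tigit* was lost. It was 4 with upper-quartile scaling, with sample weights and without melatonin replicate 1 (*Pdcd1* added), and with the GC correction and for melatonin replicate 1 alone (*Icos* added). Over all genes, 2188 were higher and 2267 lower at an adjusted p under 0.01, and 866 and 1392 with a log2 fold change of at least 1.

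The replicate numbers did not pair the libraries (correlations of same-numbered deviations -0.106, 0.136 and -0.194), and the replicate block left 2 called higher and 3 lower. Among other named genes, 744 values kept the call, 31 lost it and 13 gained one, and 35 of the list counts moved by over 1.5 times. The cause of these shifts was not tested. Among the 9 genes, *Tigit* and *Ctla4* had the fewest reads, 9 and 24 in melatonin replicate 1.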
